A study of Mus musculus with 15 samples.

Results

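*Agr2*, *Dmbt1*, *Klk1*, *Muc6*, *Aqp5*, *Muc2*, *Krt8*, *Krt18*, *Krt19* and *Epcam* are genes of mucous glands, goblet cells and simple epithelia, and their transcripts were followed here in libraries of sorted group 2 innate lymphoid cells (ILC2s) and of their bone marrow precursors (ILC2p). They are 10 of the 24690 gene entries counted in each of 15 RNA-seq libraries, were found by gene symbol, and each had one row in every library. The genes were chosen on their levels in these same libraries, since they had been seen to be high in gut sorts of the second experiment. Their levels in gut ILC2s are therefore a description. Fold changes and calls from fits that use the gut libraries are printed beside the share of all genes called, and nothing is read from them.

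All libraries are labelled C57BL/6, and the sorted cells came from Tgfbr2f/fER-Cre+ donors, in which tamoxifen switches on a Cre recombinase that removes floxed *Tgfbr2*, which encodes a chain of the receptor for TGF-β. Donors of 8 to 12 weeks received tamoxifen at 1 mg per day (Tgfbr2-/-) or sunflower oil (WT) for 5 days. Mature ILC2s were sorted from the lamina propria (LP) as CD45+Lin–CD127+Sca-1+CD25+KLRG1+ cells 1 day after the last treatment, giving 2 libraries of each genotype in experiment 1. Experiment 2 gave 2 of WT and 1 of Tgfbr2-/- cells. ILC2p were sorted as CD45.2+Lin–CD127+α4β7+CD25+ cells from the BM of irradiated CD45.1+ hosts, into which treated CD45.2+ BM and untreated CD45.1+ BM had been mixed and transferred 6 weeks earlier, giving 2 libraries of each genotype in both experiments. The promoter of the ER-Cre and the number of animals pooled are not given in the sources used here, and no label states whether replicates came from separate animals, so the spread between libraries may be technical. The 7 ILC2 libraries held 12167066 to 32114265 counts each and the 8 ILC2p libraries 10957021 to 35961215.

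Simple epithelia build their cytoskeleton from paired keratins, with Krt8 as the type II partner and Krt18 or Krt19 as the type I partner, and hold together with the adhesion protein Epcam. Mucus-secreting cells fold large gel-forming mucins in the endoplasmic reticulum with the help of Agr2, a member of the protein disulfide isomerase family. Muc2 is the mucin of intestinal goblet cells, Muc6 that of Brunner glands and gastric glands, and such glands also secrete Dmbt1 and Klk1 and pass water through Aqp5. Epithelial cells lack CD45, which both sorts required.

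In the GENCODE annotation of NCBIM37 (mm9, the build of the deposited counts) all 10 are protein-coding genes. 4 of them lie in pairs. *Krt8* (chr15:101827142-101834773, minus strand) and *Krt18* (chr15:101858647-101862457, plus strand) are 23873 bases apart, and *Muc6* (chr7:148819871-148841218, minus strand) and *Muc2* (chr7:148876268-148940595, plus strand) are 35049 bases apart. The 120 bases upstream of the start are shown for 4 genes with unlike patterns: *Agr2* was high in all gut libraries of experiment 2, *Klk1* also in all marrow libraries, *Epcam* in gut libraries of both experiments, and *Muc2* mainly in 1 library. They are from RefSeq on GRCm38.p6, 5′ to 3′ on the gene's strand, which is the plus strand for all 4, at chr12:35992805-35992924, chr7:44225240-44225359, chr17:87635859-87635978 and chr7:141690220-141690339. Capitals mark a forkhead letter pattern (TGTTTNC or its complement) in *Agr2* and *Muc2* and a GC box (GGGCGG or its complement) in *Epcam* and *Muc2*.
Agr2: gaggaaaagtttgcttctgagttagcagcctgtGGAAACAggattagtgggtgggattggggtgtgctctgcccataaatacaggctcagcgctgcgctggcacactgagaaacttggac
Klk1: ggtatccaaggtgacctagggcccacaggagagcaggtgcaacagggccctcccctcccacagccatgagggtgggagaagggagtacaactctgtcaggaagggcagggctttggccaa
Epcam: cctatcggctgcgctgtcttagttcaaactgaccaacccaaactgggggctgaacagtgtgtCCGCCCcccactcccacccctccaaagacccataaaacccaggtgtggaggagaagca
Muc2: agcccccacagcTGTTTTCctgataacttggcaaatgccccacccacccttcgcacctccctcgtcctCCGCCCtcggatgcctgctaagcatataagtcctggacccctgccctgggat
RefSeq promoters of 300 bases (250 before the start and 50 after it) were matched for 8 of the 10 genes, not for *Dmbt1* and *Krt19*. With both strands searched and overlaps between patterns allowed, TGTTTNC was in 3 of the 8 (*Agr2*, *Krt18* and *Muc2*) and in 20.5% of all 32817 promoters. GGGCGG was in 3 (*Aqp5*, *Epcam* and *Muc2*) and in 35.6% of all, TATAAA in 2 (*Krt8* and *Muc2*) and in 13.6%, and AGATAA in 3 (*Krt8*, *Muc2* and *Muc6*) and in 11.2%. *Klk1* held none of the 4 patterns in this window. No pattern was common to the 8 genes.

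Several libraries stood apart from the rest of their group. *Tgfbr2*, the gene targeted, did not separate the genotypes. In RPKM, the read number scaled to transcript length and mapped reads, it was 36.1, 57.9, 36.5 and 51.4 in the 4 WT ILC2 libraries and 49.1, 40.5 and 23.9 in the 3 libraries labelled Tgfbr2-/-. In ILC2p it was 0.146, 59.1, 25.3 and 49.0 in the WT libraries and 16.9, 26.3, 6.82 and 38.7 in those labelled Tgfbr2-/-, so that the lowest library was labelled WT (8 counts). Counts over the whole transcript include exons that may remain after deletion, so *Tgfbr2* checks the labels only in part, and genotypes below are those of the labels. The 4 ILC2p libraries labelled Tgfbr2-/- also stood apart in *Lyz2*, a lysozyme of myeloid cells, which was 9969 to 10720 RPKM there and 22.5 to 73.0 RPKM in the 4 WT libraries. A list of 13 ILC2 genes summed to 2087 to 2441 RPKM in those 4 libraries and to 4860 to 5607 RPKM in the WT libraries. In all 7 gut libraries the ILC2 genes were high, at 4360 to 5762 RPKM in sum, with *Klrg1*, part of the sorting gate, at 520 to 830 RPKM. The 3 gut libraries of experiment 2 carried genes of other organs at high levels, as described below beside the 10 genes, and comparisons that rest on these 3 libraries are also given without them where the genes could still be fitted.

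**Figure D1:**
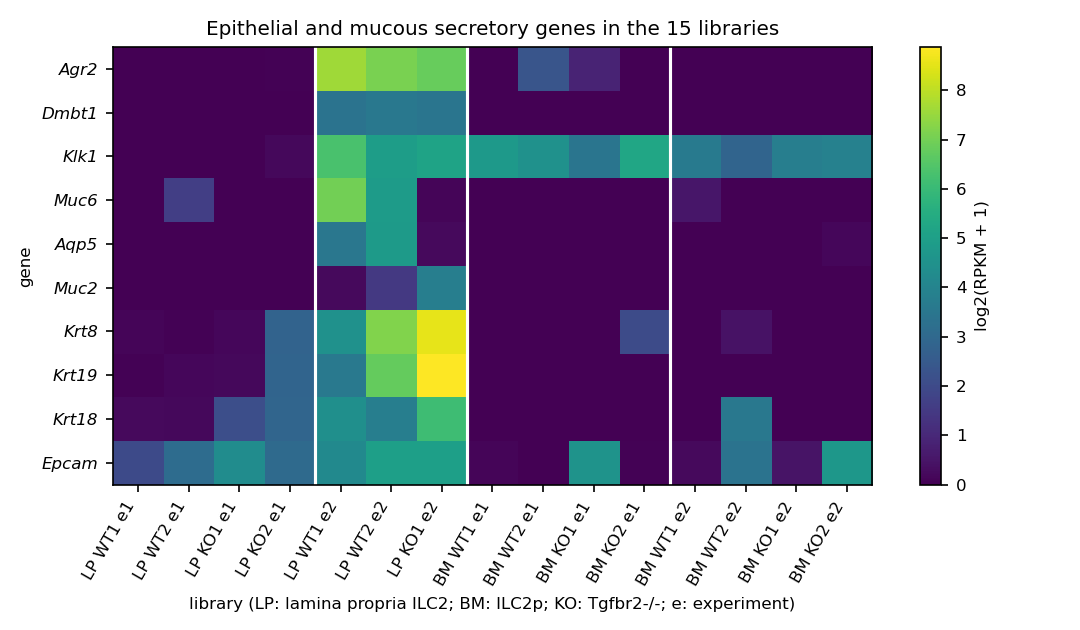
Levels of the 10 genes (rows) in the 15 libraries (columns), as log2(RPKM + 1), with white lines between experiments and cell types. The 3 LP libraries of experiment 2 are bright in most rows, the 4 LP libraries of experiment 1 are mostly dark outside the *Epcam* row, and *Klk1* is seen in all 8 BM libraries.

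The 10 genes together summed to 3.29, 10.3, 22.8 and 26.4 RPKM in the gut libraries of experiment 1 (WT replicates 1 and 2, then Tgfbr2-/- replicates 1 and 2), and to 491, 532 and 1112 RPKM in experiment 2 (WT replicates 1 and 2, then Tgfbr2-/-). As a share of all counts they took 0.000644% to 0.00428% in experiment 1. In experiment 2 the shares were 0.141% (95% Wilson interval 0.139% to 0.143%), 0.0918% (0.0901% to 0.0934%) and 0.169% (0.166% to 0.171%), where the intervals cover counting error only. The gene with the highest RPKM was *Epcam* in all 4 libraries of experiment 1, and it differed between the libraries of experiment 2, being *Agr2* in WT replicate 1, *Krt8* in WT replicate 2 and *Krt19* in the Tgfbr2-/- library. In bulk RNA of a sort, fewer cells of a type and less RNA per cell cannot be told apart.

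*Agr2* (chr12:36719494-36730674, plus strand), the isomerase of mucin-producing cells, went from near absence to one of the higher levels of the 10. It had 0, 0, 0 and 1 counts in the 4 gut libraries of experiment 1 and 2279, 1272 and 996 counts in experiment 2, or 195, 137 and 111 RPKM. The ratio of its summed counts per effective total was 10488, with an exact binomial interval of 1882 to 414360 that covers counting error only and rests on 1 count in experiment 1. All 3 libraries of experiment 2 were above all 4 of experiment 1, and the WT and Tgfbr2-/- libraries were alike in this.

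*Dmbt1* (chr7:138175590-138265140, plus strand), a secreted glycoprotein of mucosal surfaces with scavenger receptor domains, was at 0 counts in every library of experiment 1 and had 894, 811 and 736 counts in experiment 2. Its level, 9.99 ± 0.663 RPKM (SD, n = 3), had the smallest SD of the 10 genes among the libraries of experiment 2. Against a floor of 3 counts in each of the 4 libraries of experiment 1 it was at least 469-fold higher in experiment 2. *Dmbt1* was also at 0 counts in all 8 ILC2p libraries.

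*Muc6*, the gland mucin, was uneven between the libraries of experiment 2. Its counts there were 15974 in WT replicate 1, 2853 in WT replicate 2 and 8 in the Tgfbr2-/- library, or 127, 28.6 and 0.0832 RPKM. Experiment 1 had 2, 351, 5 and 4 counts, with WT replicate 2 alone above 2 RPKM. The experiments therefore overlapped, since the Tgfbr2-/- library of experiment 2 lay below WT replicate 2 of experiment 1. *Aqp5* (chr15:99421280-99425260, plus strand), the water channel of gland cells, had a like pattern, with 252, 524 and 3 counts in experiment 2 and 0 counts in all 4 libraries of experiment 1. Its 3 counts in the Tgfbr2-/- library are at the limit that 3 counts set for that library, and over both WT libraries it reached 10.6 and 27.6 RPKM.

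*Muc2*, the goblet cell mucin, had the reverse order. It rested on the Tgfbr2-/- library of experiment 2, with 1031 counts (13.0 RPKM), followed by WT replicate 2 with 146 counts (1.77 RPKM) and WT replicate 1 with 17 counts (0.164 RPKM). In experiment 1 it had 0, 0, 0 and 1 counts. *Muc6* and *Muc2* are near neighbours in the genome, and their order among the 3 libraries of experiment 2 was opposite.

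*Krt19* and *Krt8* followed the order of *Muc2*, while *Krt18* was also highest in the Tgfbr2-/- library but lowest in WT replicate 2. *Krt19* (chr11:100002124-100009979, minus strand) had 231, 1811 and 7592 counts in experiment 2, or 10.9, 108 and 470 RPKM, and 1, 3, 5 and 271 counts in experiment 1. *Krt8* had 601, 3196 and 7933 counts in experiment 2, or 21.6, 145 and 374 RPKM, and 3, 1, 6 and 339 counts in experiment 1. *Krt18* had 439, 221 and 1125 counts in experiment 2, or 20.4, 12.9 and 68.3 RPKM, and 5, 4, 132 and 279 counts in experiment 1. In each of the 3 keratin genes all libraries of experiment 2 were above all of experiment 1, and Tgfbr2-/- replicate 2 was the highest library of experiment 1, at 6.03 to 6.40 RPKM. The 2 type I keratins differed in WT replicate 2 of experiment 2, where *Krt19* was at 108 RPKM and *Krt18* at 12.9 RPKM.

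*Epcam* (chr17:88035319-88050446, plus strand), the adhesion protein, was, with *Krt18*, one of the 2 genes found above 3 counts in all 7 gut libraries. Its RPKM was 3.0, 7.82, 19.1 and 7.42 in experiment 1 and 17.4, 30.9 and 30.9 in experiment 2. The experiments overlapped, because WT replicate 1 of experiment 2 (17.4 RPKM) lay below Tgfbr2-/- replicate 1 of experiment 1 (19.1 RPKM). The ratio of its summed counts was 2.38 (2.24 to 2.53, counting error only), the smallest of the 10.

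*Klk1* (chr7:51480807-51484987, plus strand), the tissue kallikrein of salivary gland, kidney and pancreas, had 0, 0, 0 and 4 counts in gut experiment 1 and 1061, 317 and 359 counts in experiment 2, or 78.7, 29.6 and 34.8 RPKM. The ratio of summed counts was 1002, with an exact binomial interval of 391 to 3680. It differed from the other 9 genes in the marrow, as given below.

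**Figure D2:**
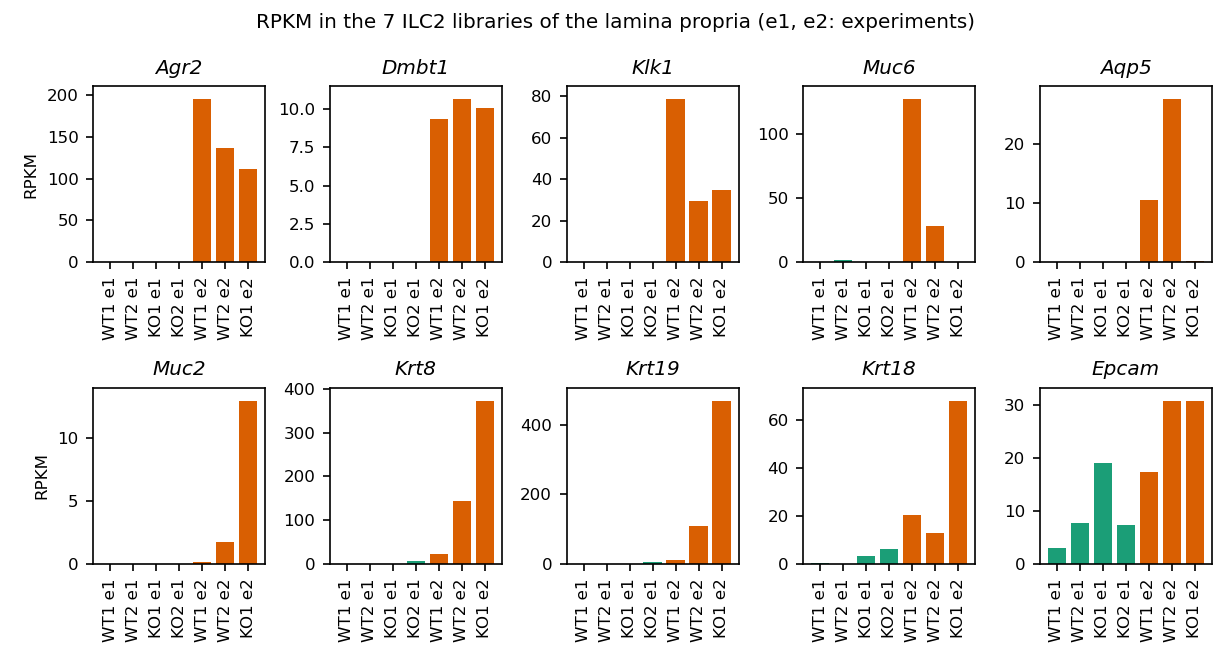
RPKM of each of the 10 genes (bars, 1 per library, linear axes from 0) in the 7 LP libraries, with experiment 1 in green and experiment 2 in orange. *Agr2* and *Dmbt1* are high in all 3 orange bars, *Muc6* and *Aqp5* in the WT bars only, and *Muc2*, *Krt8*, *Krt19* and *Krt18* are highest in the Tgfbr2-/- bar.

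Over the 3 gut libraries of experiment 2, which mix both genotypes, the genes ranked by mean RPKM as *Krt19* (196 ± 242, SD), *Krt8* (180 ± 179), *Agr2* (148 ± 42.8), *Muc6* (51.9 ± 66.6), *Klk1* (47.7 ± 27.0), *Krt18* (33.9 ± 30.1), *Epcam* (26.4 ± 7.78), *Aqp5* (12.8 ± 13.9), *Dmbt1* (9.99 ± 0.663) and *Muc2* (4.98 ± 7.0). The ranges of every 2 neighbours in this order overlapped, so the order of neighbours is not settled by 3 libraries.

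In TMM-scaled CPM (counts scaled to the effective total), all 3 libraries of experiment 2 were above all 4 of experiment 1 in 8 of the 10 genes, the exceptions being *Muc6* and *Epcam*. *Aqp5* is among the 8 on only 3 counts in the Tgfbr2-/- library. All 3 libraries of experiment 2 were likewise above all 4 of experiment 1 for 765 of the 10222 genes with at least 5 CPM in at least 2 gut libraries, or 7.48%. In edgeR's quasi-likelihood fit on the 7 libraries, with genotype as a covariate, 9 of the 10 genes passed the filter on low counts (*Aqp5* did not). The log2 fold change of experiment 2 over experiment 1 was 13.17 ± 0.90 (SE) for *Dmbt1*, 12.51 ± 0.69 for *Agr2*, 11.42 ± 1.46 for *Muc2*, 10.05 ± 1.39 for *Klk1*, 8.24 ± 1.43 for *Krt8*, 7.96 ± 1.38 for *Krt19*, 5.39 ± 0.84 for *Krt18*, 5.28 ± 1.59 for *Muc6* and 1.63 ± 0.53 for *Epcam*. For genes at or near 0 in experiment 1 these values depend on the prior count and are no bounds. Calls needed a fold change above 1.5 together with a Benjamini-Hochberg adjusted p below 0.1, and 7 of the 9 were called higher (all but *Muc6* and *Epcam*), where 0.284% of the 11981 genes tested were. Since the genes were chosen from this difference, nothing is read from that count. With 1 library left out, 0 to 2 of the genes were called, and 0 without the Tgfbr2-/- library of experiment 2.

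Genes of several organs moved with the 10 genes, and their part in the result was not tested. A list of 22 genes of simple epithelia, 4 of them among the 10, summed to 30.4 to 58.5 RPKM in gut experiment 1 and to 107, 434 and 1158 RPKM in experiment 2. In ILC2p it summed to 6.40 to 202 RPKM, so that the lowest gut library of experiment 2 lay within the marrow range. Leaving out the 4 chosen genes, 12 of its genes had at least 5 CPM in 2 gut libraries. Of these, 5 were above all of experiment 1 in all 3 libraries (*Cldn3*, *Cldn4*, *Cldn7*, *Spint1* and *Vil1*), where 7.48% of all genes were. These 5 reached 5 CPM only in libraries of experiment 2, and the list was chosen with earlier results known. Nothing is therefore read from this count. *Cldn3*, a tight junction protein, had 0 counts in all of experiment 1 and 24, 809 and 304 counts in experiment 2. *Cldn4* had 0 counts in experiment 1 and 90, 1 and 219 counts in experiment 2, so that its 1 count in WT replicate 2 is under the floor of 3 counts. *Vil1*, which bundles actin in microvilli, had 1, 0, 0 and 0 and then 79, 121 and 93 counts. All 22 genes were above 3 counts in the Tgfbr2-/- library of experiment 2, 15 in WT replicate 1 and 14 in WT replicate 2, against 5 to 10 in experiment 1.

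The list of 15 mucous gland genes, which holds 5 of the 10, summed to 0.469 to 14.2 RPKM in experiment 1 and to 5215, 1431 and 3304 RPKM in experiment 2. Its most abundant gene was *Gkn3*, a secreted gastrokine, in both WT libraries (2898 and 514 RPKM), with *Tff2*, the trefoil factor of mucous neck cells, at 1857 and 390 RPKM. In the Tgfbr2-/- library, where *Muc6* and *Aqp5* were near 0, *Gkn3* was at 5.47 RPKM and *Tff2* at 97.2 RPKM. There the gastrokines *Gkn2* (1185 RPKM) and *Gkn1* (773 RPKM), named after their values were seen, took the lead, and in the WT libraries of experiment 2 these were at 0.167 to 3.09 RPKM. *Pgc*, the pepsinogen of chief cells and Brunner glands, had 573, 4211 and 11 counts, and 0 in experiment 1. Within the list *Gkn3*, *Pgc*, *Muc6* and *Aqp5* were higher in both WT libraries, *Gkn1* and *Gkn2* in the Tgfbr2-/- library, and *Agr2*, *Dmbt1* and *Klk1* were high in all 3.

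Of 14 goblet cell genes, 11, 10 and 14 were above 3 counts in the 3 libraries of experiment 2, and they summed to 358, 244 and 448 RPKM against 1.30 to 89.1 RPKM in experiment 1. The leading gene was *Agr2* in both WT libraries and *Spink4*, a goblet cell peptide, in the Tgfbr2-/- library (232 RPKM). Of the 7 goblet genes with at least 5 CPM in 2 gut libraries that are not among the 10, 0 were above all of experiment 1 in all libraries of experiment 2. *Zg16*, a lectin of goblet and acinar cells, was highest in WT replicate 1 (143 RPKM).

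Of 20 pancreatic acinar genes, which include *Klk1* and *Dmbt1*, all 20 were above 3 counts in WT replicate 1 of experiment 2, where they summed to 12416 RPKM and took 1.25% of all counts. The elastase *Cela2a* led with 3344 RPKM, and *Clps*, the lipase cofactor, was at 1325 RPKM. In WT replicate 2 and the Tgfbr2-/- library the list summed to 79.2 and 60.3 RPKM, its most abundant gene was *Klk1* itself, and *Cela2a* was at 0.400 and 0.830 RPKM. *Klk1* was 78.7 RPKM in the library with pancreatic transcripts and 29.6 and 34.8 RPKM in the others, and *Dmbt1* was 9.31, 10.6 and 10.02 RPKM in the same order.

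Absorptive enterocyte genes summed to 0 to 0.159 RPKM in experiment 1 and to 137, 40.0 and 112 RPKM in experiment 2. The 16 genes of this list were unlike in the 3 libraries. *Reg1* was at 135 RPKM and 13 genes at 0 in WT replicate 1, whose sum was thus almost all *Reg1*. In WT replicate 2 and the Tgfbr2-/- library *Reg1* had 0 and 4 counts. WT replicate 1 was also the library with high pancreatic acinar genes, so its sum is not read as enterocyte transcripts. *Fabp2* led in WT replicate 2 (13.7 RPKM) and *Rbp2* in the Tgfbr2-/- library (52.1 RPKM). In ILC2p, *Apoc3* of this list reached 20.3 RPKM and *Fabp1* 11.1 RPKM. Among gut libraries the Paneth cell list was also highest in the Tgfbr2-/- library, with *Reg3g* at 104 RPKM and *Reg3b* at 77.8 RPKM. WT replicate 2 was the highest in endothelial genes, with all 8 above 3 counts and *Plvap* at 150 RPKM. It was also the highest gut library in macrophage genes, which summed to 326 RPKM there, to 12.4 and 27.1 RPKM in the other libraries of experiment 2 and to 0.776 to 41.4 RPKM in experiment 1. In the other 2 libraries of experiment 2 the endothelial genes summed to 0.131 and 2.49 RPKM.

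**Figure D3:**
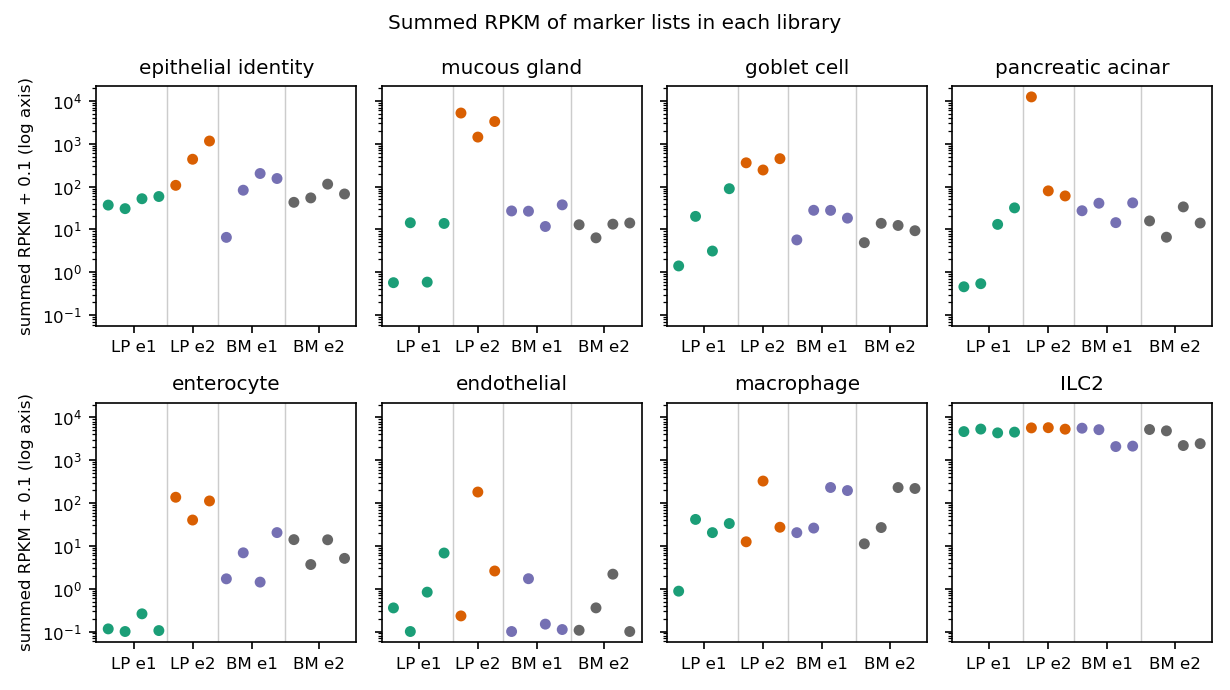
Summed RPKM of 8 marker lists in each library (points, 1 per library, log axis after adding 0.1), for LP and BM libraries of experiments 1 and 2 (e1, e2). The mucous gland, goblet and enterocyte lists are highest in LP e2, where the enterocyte sum of 1 library is almost all *Reg1*. The epithelial list reaches 1158 RPKM in LP e2 and 202 RPKM in BM. The pancreatic list reaches 12416 RPKM in 1 library, and endothelial genes reach 181 RPKM in 1 library. The ILC2 list stays at 4360 to 5762 RPKM in all LP libraries.

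Transcription factors of the gut epithelium were mixed. *Ehf*, an epithelial ETS factor, had 0 counts in all of experiment 1 and 151, 68 and 72 counts in experiment 2, and *Sox9*, a factor of crypts and ducts, had 0, 0, 0 and 1 and then 312, 19 and 120 counts. *Klf5*, the most abundant factor of that list, and *Creb3l1*, the next, did not separate the experiments. *Klf5* was at 55.1 to 126 RPKM in experiment 1 and 59.6 to 73.2 RPKM in experiment 2, and *Creb3l1* at 0.143 to 9.90 and 0.865 to 5.01 RPKM. Of the 16 factors 5 were measured at 5 CPM in 2 libraries, and *Ehf* and *Sox9* were the 2 above all of experiment 1. Since both reached 5 CPM only in libraries of experiment 2, nothing is read from their number. Below that level *Spdef*, a factor of goblet cells, had 0 counts in experiment 1 and 70, 102 and 27 counts in experiment 2, and *Foxa3*, a forkhead factor, 0 and then 53, 65 and 76.

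The families of the 10 genes behaved unevenly. Of 19 protein disulfide isomerase genes 14 were measured in gut, and in TMM-scaled CPM *Agr2*, *Tmx1*, *Tmx3* and *Txndc12* were above all of experiment 1 in all 3 libraries of experiment 2. In RPKM *Pdia3* and *Erp44* were also above all of experiment 1, though not in CPM. *Pdia3* was at 259 to 377 RPKM in experiment 1 and 435 to 496 RPKM in experiment 2. *Erp44* was at 18.7 to 29.5 RPKM and 32.0 to 41.2 RPKM. *P4hb* overlapped, at 161 to 231 and 164 to 224 RPKM. Of the mucins, *Muc2* and *Muc1* were above all of experiment 1, and *Muc1*, a mucin of the cell surface, moved from 3.34 to 4.72 RPKM up to 5.42 to 12.1 RPKM. *Muc13*, another surface mucin, was at 22.9 RPKM in WT replicate 2 and 0.153 RPKM in WT replicate 1. Of the aquaporins, *Aqp1* and *Aqp5* were above all of experiment 1, and *Aqp3* was at 9.64 to 10.8 RPKM in experiment 2 and 0.264 to 11.3 RPKM in experiment 1. Of 26 kallikreins 2 reached 5 CPM in 2 gut libraries, and of these *Klk1* was above all of experiment 1 and *Klk8* was not, at 63.9 to 92.1 RPKM in experiment 1 and 65.0 to 77.4 RPKM in experiment 2. Below that level *Klk1b5*, a close copy of *Klk1*, had 0 counts in experiment 1 and 175, 37 and 45 counts in experiment 2.

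Across the 7 gut libraries, log2(CPM + 1) of the 10 genes fell into patterns that can be given as Pearson correlations, with no test, since the points share their experiment and depth. *Agr2* and *Dmbt1* had r = 1.00 and *Agr2* and *Klk1* r = 0.99, *Krt8* and *Krt19* had r = 0.99, *Muc6* and *Aqp5* had r = 0.88, and *Muc6* and *Muc2* had r = 0.09. The 10 genes most like *Agr2*, among those with at least 5 CPM in 2 gut libraries, were *Zfp644*, *Dmbt1*, *Ehf*, *Klk1*, *Slc6a12*, *Cmtr1*, *Vapa*, *Sh3bgrl*, *Asns* and *Tmem30a* (r from 0.986 to 0.997). Some of these are expressed by most cells, so likeness over 7 libraries that differ by experiment also takes in genes with a small shift, and 1 to 7 of the 10 remained when a library was left out. For the others, the nearest gene was *Ehf* for *Klk1*, *Agr2* for *Dmbt1*, *Myl12b* for *Muc6*, followed by *Gkn3*, *Pgc* for *Aqp5*, *Lgals2* for *Muc2*, *Krt19* for *Krt8*, *Fcgbp* for *Krt19*, *Cept1* for *Krt18* and *Trim30a* for *Epcam*.

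Whether the 10 genes differed between genotypes in gut ILC2s is part of how they were seen, and the values are a description. edgeR's quasi-likelihood test called 0 of the 9 genes that passed the filter, and 0% of all 11981 genes tested. 557 of all genes had an unadjusted p under 0.05, limma called 0 genes and DESeq2 338 genes, 4 of the 9 among them. The log2 fold change of Tgfbr2-/- over WT, with experiment as a covariate, was -7.88 ± 1.84 (SE) for *Muc6* and -0.36 ± 0.63 for *Agr2*. It was 3.92 ± 1.26 for *Krt19*, 3.74 ± 0.81 for *Krt18*, 3.62 ± 1.31 for *Krt8* and 3.55 ± 1.25 for *Muc2*, and 0.02 ± 0.76 for *Dmbt1*. In *Muc6* the 3 libraries labelled Tgfbr2-/- (0.0222, 0.0157 and 0.0832 RPKM) lay within the range of the 4 WT libraries (0.0114 to 127 RPKM). In experiment 2 the genotype difference is that of 1 library to 2, and for *Krt19* these 2 WT libraries were themselves at 10.9 and 108 RPKM. In experiment 1 alone 2 of the genes passed the filter, *Epcam* with a log2 fold change of 1.19 ± 0.93 and *Krt18* with 4.86 ± 1.41, and edgeR called 0 of both and 0 of all 11207 genes, of which 915 had an unadjusted p under 0.05.

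In the marrow, *Klk1* was found in all 8 libraries. It had 272, 271, 315 and 182 counts in WT ILC2p (experiment 1, then 2) and 97, 329, 257 and 374 counts in Tgfbr2-/- ILC2p, or 6.21 to 37.3 RPKM with a median of 13.4 RPKM. It was thus lower than in the 3 gut libraries of experiment 2 except that 1 marrow library (37.3 RPKM) lay above 2 of them, and it was above all 4 gut libraries of experiment 1. The name of these genes as genes of the gut sorts therefore does not describe *Klk1*.

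Some other salivary gland genes were also found in the marrow, and others were not. *Pip*, a prolactin-induced protein of secretory glands, was at 5.12 to 22.3 RPKM in the 8 ILC2p libraries and *Prol1*, a secreted protein of salivary and lacrimal glands, at 3.02 to 12.2 RPKM. *Dcpp1* and *Dcpp2*, secreted proteins of the sublingual gland, were above 3 counts in all 8 and *Dcpp3* in 7, but these 3 are close copies whose reads cannot be assigned with certainty. All 5 had 0 counts in the 4 gut libraries of experiment 1. *Aqp5*, which salivary acinar cells also express, was at 0 in 7 of the 8 ILC2p libraries and had 5 counts in the other, and *Smgc* and *Muc19*, other salivary genes, were above 3 counts in 1 and 2 of the 8. *Amy1* was above 3 counts in 1 and *Bpifa2* in 2 of the 8, and *Lpo* and *Egf* in 0. The ILC2p library highest in *Klk1*, Tgfbr2-/- replicate 2 of experiment 1, was also the highest in *Dcpp1* (12.4 RPKM), *Dcpp2* (16.3 RPKM), *Dcpp3* (9.28 RPKM) and *Muc19* (0.992 RPKM). It was not the highest in *Pip*, *Prol1*, *Aqp5*, *Smgc*, *Amy1* or *Bpifa2*. The other 25 kallikreins include close copies of *Klk1*, and in marrow *Klk1b4* was above 3 counts in 7 libraries, at up to 5.84 RPKM, *Klk1b22* and *Klk1b9* in 5 each and *Klk1b26* in 0. Of the salivary genes 6 were tested between the ILC2p genotypes and 0 were called by edgeR's quasi-likelihood test, where 3.47% of all genes were. The list of 16 genes summed to 26.4 to 91.2 RPKM in ILC2p, to 0 to 0.147 RPKM in gut experiment 1 and to 37.1 to 116 RPKM in gut experiment 2. Its part in the *Klk1* level was not tested.

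**Figure D4:**
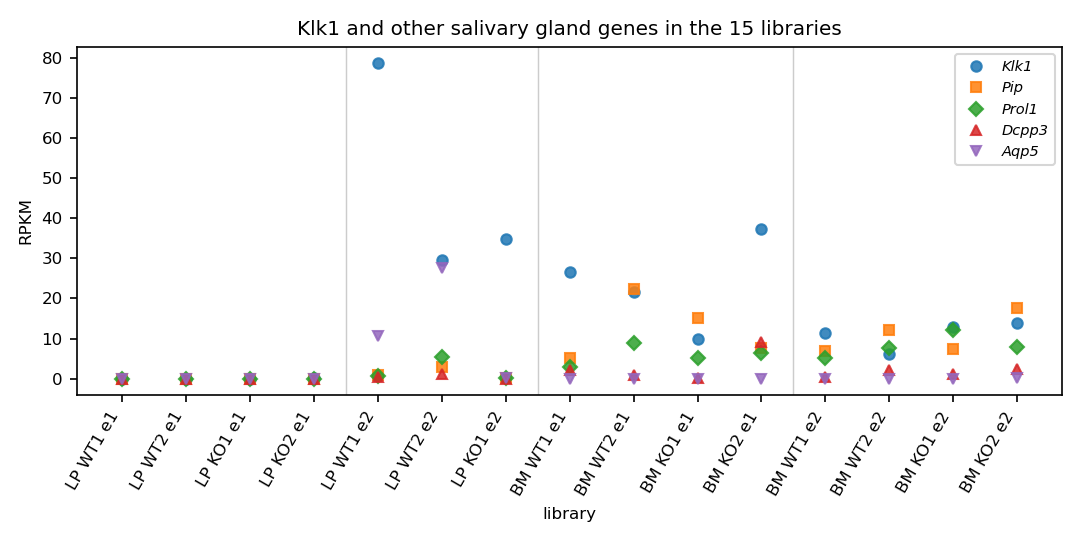
RPKM (linear axis) of *Klk1* and 4 other salivary gland genes in the 15 libraries, 1 symbol per gene. *Klk1*, *Pip* and *Prol1* are above 0 in all 8 BM libraries and at or near 0 in the 4 LP libraries of experiment 1, and *Aqp5* reaches 10.6 and 27.6 RPKM only in the WT LP libraries of experiment 2.

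*Epcam* was unevenly high in the marrow. It had 2, 0, 11 and 645 counts in the 4 WT libraries and 515, 1, 18 and 1590 counts in the 4 Tgfbr2-/- libraries, so that 3 of 8 libraries were between 9.36 and 25.1 RPKM and the other 5 under 0.4 RPKM. The high libraries came from both genotypes and both experiments. *Krt18* was high in 1 of these 3, WT replicate 2 of experiment 2, with 507 counts (10.8 RPKM), and had 0 or 1 counts in the other 7. *Krt8* had 56 counts in Tgfbr2-/- replicate 2 of experiment 1, 22 in WT replicate 2 of experiment 2 and 0 or 1 in the others, and *Krt19* had 0 counts in all 8, which allows at most 0.0726 to 0.310 CPM (3 counts of each library's total). WT replicate 2 of experiment 2 was the library with both *Krt8* (22 counts) and its partner *Krt18* (507 counts) above 3 counts.

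The mucous genes were near absent in the marrow. *Dmbt1* was at 0 counts in all 8 libraries, and *Muc2* had 2 counts in 1, 1 count in another and 0 in 6. *Agr2* had 44 counts in WT replicate 2 of experiment 1 (4.02 RPKM), 7 counts in Tgfbr2-/- replicate 1 of experiment 1 and 0 in the other 6. *Muc6* had 121 counts in WT replicate 1 of experiment 2 (0.469 RPKM), 1 and 3 counts in 2 others and 0 in 5. The library highest in *Agr2* was not the one highest in *Muc6*.

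When gut ILC2s were compared with ILC2p in 1 fit over all 15 libraries, edgeR's quasi-likelihood test called 7 of the 9 genes tested higher in ILC2s, where 11.3% of the 12806 genes tested were called higher. Nothing is read from this count, because the choice of the genes used the gut libraries. The log2 fold change was 13.78 ± 2.78 (SE) for *Krt19*, 11.89 ± 3.18 for *Dmbt1*, 8.73 ± 2.26 for *Muc2*, 7.89 ± 2.17 for *Krt8*, 6.79 ± 2.46 for *Agr2*, 6.24 ± 1.85 for *Krt18* and 5.46 ± 1.57 for *Muc6*. For *Epcam* it was 1.51 ± 1.30 and for *Klk1* -0.18 ± 1.5, and these 2 were not called. The comparison rests on the gut libraries of experiment 2. Without these 3 libraries 6 of the genes were tested and 1 was called, *Klk1*. It was then lower in ILC2s with a log2 fold change of -9.63, and *Agr2* turned to -4.98. Of all 12607 genes 1035 were called, 374 of them lower. Nothing is read from the call of *Klk1* either, because the choice of the genes used the gut libraries. With only 1 library left out, 2 of the genes were called without the Tgfbr2-/- library of experiment 2, 3 without WT replicate 1 and 4 without WT replicate 2.

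The genotype of the ILC2p was not used to choose the genes and could be tested. The study profiled these precursors to ask whether ILC2 development needs TGF-β signalling. Only *Klk1* and *Epcam* passed the filter on low counts, and edgeR's quasi-likelihood test, with p-values adjusted by Benjamini-Hochberg, called 0 of these 2, where it called 3.47% of 9242 genes. WT libraries had 13.3 ± 8.64 CPM of *Klk1* and Tgfbr2-/- libraries 17.2 ± 11.4 CPM (SD, n = 4 each), with a log2 fold change of 0.50 ± 1.28 (SE) and an edgeR adjusted p of 0.969. For *Epcam* the means were 4.02 ± 7.72 CPM (WT) and 28.3 ± 32.5 CPM (Tgfbr2-/-), with a log2 fold change of 4.83 ± 3.35 and an edgeR adjusted p of 0.818. The genotypes overlapped in both genes. For *Klk1* both SDs, and for *Epcam* the SD of the Tgfbr2-/- libraries, were larger than the difference of the means. Such wide errors leave differences of several fold undetectable in both genes. With no filter on low counts, 6 more of the genes could be tested, and their edgeR adjusted p-values were 0.595 to 1. These 6 genes were at or near 0 in most ILC2p libraries, so the test could not decide for them and nothing is read from it.

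**Figure D5:**
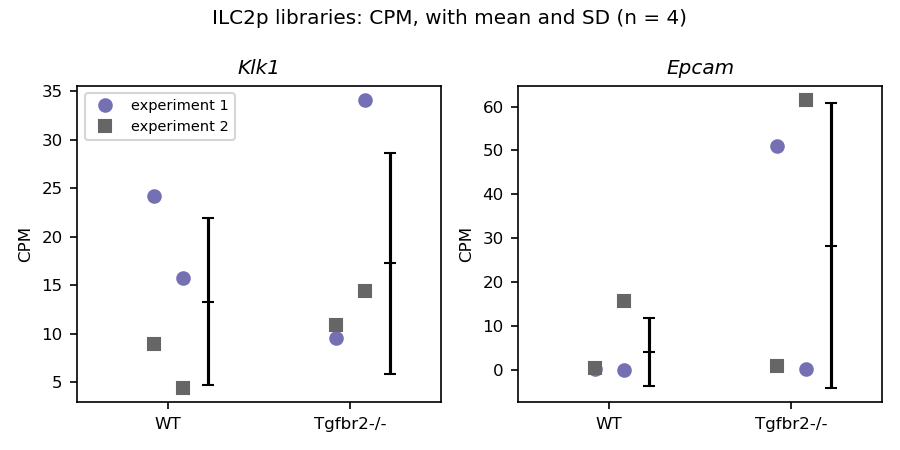
CPM of *Klk1* and *Epcam* in the 8 ILC2p libraries by genotype (circles, experiment 1; squares, experiment 2), with the mean and SD of 4 libraries beside them. *Klk1* lies between 4.4 and 34.0 CPM with overlapping genotypes, and *Epcam* is above 15 CPM in 1 WT and 2 Tgfbr2-/- libraries and below 1 CPM in the rest.

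Other genes of the lists did differ between the ILC2p genotypes, and these are not among the 10. With edgeR's quasi-likelihood test (p-values adjusted by Benjamini-Hochberg), the claudin *Cldn15* rose in Tgfbr2-/- ILC2p (log2 fold change 8.37, adjusted p = 0.00485), where the median over all genes was -0.10. *Olfm4* (8.75, adjusted p = 0.0129), a gene of crypt stem cells and of neutrophil granules, *Aqp9* (8.15, adjusted p = 0.0605), an aquaporin of myeloid cells, and *Cd14* (8.64, adjusted p = 0.00635), a receptor of monocytes, also rose. *Lyz1* (8.23, adjusted p = 1.08e-05) rose as well, but it is a near-identical copy of *Lyz2* and its reads are uncertain. Of 12 ILC2 genes tested with edgeR, *Il1rl1* (adjusted p = 0.00156), *Gata3* (0.0603) and *Id2* (0.0447) fell, by 1.96, 1.41 and 0.96 on the log2 scale. None of the 12 rose, where of all 9242 genes 80 fell and 241 rose. In its own edgeR analysis of fewer replicates, the study reported *Il1rl1* as lower and *Gata3* as unchanged in Tgfbr2-/- ILC2p. By flow cytometry it found no difference in GATA3 in the remaining Tgfbr2-/- ILC2p. The rises and falls given here moved with the high *Lyz2* and the low sum of the ILC2 list in the 4 Tgfbr2-/- libraries. *Il1rl1*, *Gata3* and *Id2* belong to that list, so their falls are part of its low sum and no separate observation. What part the high *Lyz2* and the low sum have in these differences was not tested.

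Whether the genotype difference itself differed between ILC2s and ILC2p was tested in 1 fit over all 15 libraries. edgeR's quasi-likelihood test called 0 of the 9 genes tested, where it called 0.992% of 12806 genes. Only *Klk1* and *Epcam* passed the filter on low counts within ILC2p. The others entered this fit through the gut libraries on which they were chosen, so nothing is read from this count. Of all genes 1555 had an unadjusted p under 0.05, limma called 0 of the 9 and 382 of all genes, and DESeq2 called 1 of the 9 and 1509 of all genes. The difference of log2 fold changes was 0.72 ± 1.53 (SE) for *Klk1* and -3.94 ± 3.27 for *Epcam*, the 2 genes measured in both cell types, where the median over all genes was 0.31. Without the gut libraries of experiment 2 these were 3.19 ± 2.22 and -3.61 ± 4.16, and 0 of the 6 genes tested and 15 of all 12607 genes were called. For *Dmbt1* and *Krt19*, at 0 in all ILC2p libraries, the fitted error is not usable and the difference is not given. The ILC2 part of this test used libraries on which the genes were chosen.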

How the data were processed

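Gene counts and RPKM were taken from the 15 deposited tables as the authors made them. Per the methods, the authors mapped reads to mm9 with TopHat, allowing 15 multiple hits, and the submitters' processing notes name Bowtie2. The deposited counts are whole reads per gene over RefSeq exons from rpkmforgenes, and the deposited RPKM values are the same reads scaled to exon length and mapped reads. Each table held 24690 entries for 24089 symbols, of which 205 entries joined several genes and 306 symbols had several entries. Libraries of one group all differed by more than sampling noise. The GEO labels give the ILC2p as WT or Tgfbr2-/-, and the chimeras are described in the methods.

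Counts were fitted with edgeR 4.0.16 in R 4.3.3 (quasi-likelihood test, TMM scaling, filterByExpr), with experiment as a covariate within a cell type. A call was a Benjamini-Hochberg adjusted p-value under 0.1 with a fold change over 1.5. CPM are TMM-scaled. Intervals of shares are 95% Wilson intervals, those of count ratios are exact, and a floor is 3 counts in each library. All of these cover counting error only. DESeq2 1.42.0, limma 3.58.1 on log2(RPKM + 1), other scalings, other filters, a stricter threshold, single experiments, a replicate block and the omission of each library were run as alternatives. The fits were tested on simulated data. Figures were drawn with matplotlib 3.10.9.

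The 10 genes and 22 marker and family lists were chosen with earlier results of these data known. The genes named were the 10, *Tgfbr2*, the 2 genes of each list with the highest mean RPKM in ILC2 libraries that are not among the 10, the 10 genes most correlated with *Agr2* and the 3 most correlated with each other gene of the 10, and list genes that were called. Any other gene in the text, such as *Cldn3*, *Cldn4*, *Gkn1*, *Gkn2*, *Fabp2*, *Cldn7*, *Spdef*, *Foxa3*, *Bpifa2*, *Lpo*, *Egf*, *Smgc*, *Muc19*, *Pip*, *Klk1b4*, *Klrg1* and *Lyz2*, was chosen after its values were seen. 1 of the called list genes is not reported here.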

Additional observations from a re-analysis of the deposited data

Results flagged for a closer look

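Among the 28 groups of 4 libraries with values above 0 for a gene of the 10 or *Tgfbr2*, 15 had 1 library far above the other 3 by Dixon's criterion, where chance flags about 1 in 20 groups. That rate does not hold for groups with 3 libraries at 0, in which any count meets the criterion. Most of these groups were at or near 0 in the other libraries. In WT ILC2s, replicate 2 of experiment 2 was above the others in *Krt8* (223 CPM), *Krt19* (126 CPM) and *Muc2* (10.2 CPM). In WT ILC2p, replicate 2 of experiment 2 was above the others in *Epcam* (15.6 CPM), *Krt18* (12.3 CPM), *Krt8* (0.532 CPM) and *Muc2* (0.0484 CPM), replicate 1 of experiment 2 in *Muc6* (3.41 CPM) and replicate 2 of experiment 1 in *Agr2* (2.55 CPM). In Tgfbr2-/- ILC2p, replicate 2 of experiment 1 was above the others in *Krt8* (5.79 CPM), replicate 1 of experiment 1 in *Agr2* (0.693 CPM), replicate 2 of experiment 2 in *Aqp5* (0.193 CPM) and *Krt18* (0.0386 CPM), and replicate 1 of experiment 2 in *Muc6* (0.127 CPM) and *Muc2* (0.0425 CPM). The values of *Muc6* in Tgfbr2-/- ILC2p, of *Krt18* in Tgfbr2-/- ILC2p and of *Muc2* in ILC2p are 1 to 3 counts, at or under the floor.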

How the results depend on the processing

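Of 671 values of the 10 genes under alternatives, 590 stayed within 1 SE of the reported value (in the ILC2p genotype, on the same side of the test) and the others moved further. The sign changed in 24: 8 for the ILC2 genotype, 9 for ILC2s against ILC2p and 7 for the difference of genotype effects. Among these, 1 concerned a called value, *Agr2* between ILC2s and ILC2p (log2 fold change -4.98 without the gut libraries of experiment 2, an alternative chosen after seeing the data). With 1 library left out, *Agr2* ranged from -0.55 to 1.95 and *Klk1* from -0.58 to 3.63 for the ILC2 genotype. The numbers of genes called were less stable. For the ILC2 genotype 0 genes became 338 by DESeq2 and 3 with no filter, and 0 to 0 with 1 library left out. For the ILC2 experiment 117 (34 higher, 83 lower) became 1347 by DESeq2 (797, 550), 24 with library size scaling (13, 11), 31 with upper quartile scaling (13, 18), 320 with no filter, 66 with at least 10 counts in every library, 5 at an adjusted p under 0.05, and 0 to 19 with 1 library left out. For the ILC2p genotype 321 (241 higher, 80 lower) became 1229 by DESeq2 (676, 553), 203 with at least 10 counts, 38 in experiment 1 alone, 77 in experiment 2 alone, and 179 to 319 with 1 library left out, and upper quartile scaling gave 322 (203, 119). For ILC2s against ILC2p 2010 (1441 higher, 569 lower) became 479 with at least 10 counts (206, 273), so that most calls were then lower. It became 1035 without the gut libraries of experiment 2 (661, 374), and 1524 to 2467 with 1 library left out. For the difference of genotype effects 127 (60 higher, 67 lower) became 1509 by DESeq2, 382 by limma, 196 with library size scaling (132, 64), 203 with upper quartile scaling (146, 57), 259 with no filter, 68 at an adjusted p under 0.05, 15 without the gut libraries of experiment 2, and 14 to 407 with 1 library left out. The median log2 fold change of all genes moved from 0.31 to 0.659 there with upper quartile scaling. A replicate block gave 0 calls for the ILC2 genotype and 175 for the ILC2p genotype, but same-numbered libraries did not deviate together (r = -0.0446 in ILC2s, -0.00716 and -0.0381 in ILC2p), so the numbers do not pair the libraries. The adjusted p of *Epcam* between ILC2p genotypes, with edgeR, DESeq2 or limma, ranged from 0.12 (DESeq2) to 0.996 over 18 alternatives, and that of *Klk1* from 0.837 (DESeq2) to 1 over 20.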

Other observations

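Lists of cell types that the report does not describe gave these values. Of tuft cell genes *Avil* led in gut, at 4.07 to 47.3 RPKM in experiment 1 and 6.56 to 11.3 RPKM in experiment 2. Of the tuft, crypt stem, enteroendocrine, fibroblast, enteric glia, B cell, macrophage and T cell genes with at least 5 CPM in 2 gut libraries, 0 were above all of experiment 1 in all 3 libraries of experiment 2. In that order the lists had only 1, 2, 1, 3, 0, 4, 4 and 3 genes at this level, so little can be read from the 0. Enteroendocrine genes summed to 3.30 to 28.2 RPKM in experiment 1 and 15.8 to 52.5 RPKM in experiment 2. *Tph1*, which makes serotonin, led in both WT libraries of experiment 2, and *Chgb* in the Tgfbr2-/- library (11.6 RPKM). The highest sum of each experiment was almost all *Tph1*, which was found in all gut libraries. These sums are therefore not read as enteroendocrine cells. Crypt stem cell genes summed to 3.49 to 23.3 RPKM in experiment 1 and 7.79 to 18.2 RPKM in experiment 2, and enteric glia genes to 0 and to 0.0636 to 0.793 RPKM. Fibroblast and smooth muscle genes were highest in WT replicate 2 (77.6 RPKM). B and plasma cell genes summed to 68.4 to 263 RPKM in experiment 1 and 102 to 183 RPKM in experiment 2, and T cell genes to 43.2 to 82.3 and 33.1 to 93.3 RPKM. Of the 13 ILC2 genes, *Gata3* and *Ptprc* were above all of experiment 1.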
